A study of Arabidopsis thaliana with 9 samples.

Results

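The tau and phi glutathione transferase genes of Arabidopsis thaliana, GSTU1 to GSTU28 and GSTF2 to GSTF14, were followed by their locus codes through RNA sequencing of wild-type Col-0 seedlings. All 41 were found among the 32833 loci of the count table, 28 of the tau class and 13 of the phi class. Seedlings had 5 days on solid and 5 days in liquid half-strength medium. The groups were 2'-aminoacetophenone (2-AA) at 200 uM, flg22 at 100 nM, and mock seedlings, labelled as having had no treatment, with 3 libraries each. 2-AA is a small molecule that the bacterium Pseudomonas aeruginosa releases in quorum sensing, and flg22 is a peptide of bacterial flagellin that plants perceive through a cell-surface receptor. Whole seedlings were used, so fewer cells that use a gene and less of its RNA per cell cannot be told apart. How long the treatments lasted and at what hour seedlings were harvested is not stated in the labels. Nor do the labels say whether the libraries of a group, called biological replicates, came from separate cultures, so each p-value reflects the spread among these libraries only, which may be technical.

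Glutathione transferases join the tripeptide glutathione to electrophilic compounds, such as herbicides, products of lipid oxidation and some defence metabolites, and the conjugates are then moved into the vacuole. The tau and phi classes are the large plant classes of this superfamily, and many of their genes lie in tandem arrays that arose by local duplication. Single members have been tied to xenobiotic tolerance, to camalexin and glucosinolate metabolism, to flavonoid transport and to light signalling. With tandem neighbours taken as members with at most 3 other genes between them, 29 of the 41 genes lay in 9 clusters and 12 stood alone. The largest cluster holds GSTU1 to GSTU7 on chromosome 2.

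Library totals ran from 26644996 to 33195007 counts, and 3 counts, taken as the limit that a count of 0 allows, came to 0.0913 to 0.114 CPM (each count over its TMM-scaled library size). Between 2-AA and mock libraries and between flg22 and mock libraries, clock genes differed widely: 7 of 11 were called higher and 3 lower in each treatment. LHY, a morning gene, changed by -6.21 (2-AA) and -5.19 (flg22) on the log2 scale, and TOC1, an evening gene, by 2.98 (2-AA) and 2.96 (flg22). Clock genes and treatment therefore moved together against mock, and the share of hour of day in the members' differences from mock was not tested. Between 2-AA and flg22, edgeR called 0 of the 11 clock genes, 4 had an unadjusted p under 0.05, DESeq2 called 0 and limma-voom 1. Of 4 leaf genes, all 4 were lower with 2-AA and 3 with flg22 than in mock, and 1 was lower with 2-AA than with flg22; their sums were 12940 to 15040 CPM with 2-AA, 14950 to 16270 with flg22 and 23520 to 24300 in mock. Of 6 root genes, 1 was lower with 2-AA and 5 with flg22 than in mock, and 2 were higher with 2-AA than with flg22; their sums were 1601 to 1770 CPM with 2-AA, 1230 to 1605 with flg22 and 1759 to 2073 in mock. RBCS1A made most of the leaf sums, with means of 12670 CPM with 2-AA, 14400 with flg22 and 14860 in mock. PYK10 made most of the root sums (1661, 1371 and 1865 CPM in the same order). Against mock, the median log2 fold change of the leaf genes was -2.70 with 2-AA and -2.63 with flg22. For the root genes it was -0.05 and -0.76. No leaf or root gene averaged 0, and the part of such shifts in the members' differences was not tested. The libraries 2-AA 2, flg22 2 and mock 3 had chloroplast read shares of 0.241%, 0.0743% and 0.0980%, against 0.0211 to 0.0281% in the other 6.

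Against mock seedlings, more of these genes were higher than lower with 2-AA, and more were lower than higher with flg22. With 2-AA, 17 of the 38 members that could be tested were higher (44.7%, where 31.2% of all 21059 genes tested were) and 12 were lower (31.6%, against 31.1% of all genes). Together 76.3% were called, against 62.2% of all genes. With flg22, 11 were higher (28.9%, against 29.8% of all genes) and 15 were lower (39.5%, against 29.4%). Together 68.4% were called, against 59.2% of all genes. The share higher with flg22 was thus close to that of all genes. A gene was called when its edgeR p, adjusted over all genes by the Benjamini-Hochberg method, was under 0.05. Rises of at least 2-fold with 2-AA were called in 14 members and falls in 5, where 10.1% and 11.9% of all genes had them. With flg22 the numbers were 6 rises and 8 falls (9.26% and 9.71% of all genes). The median log2 fold change of the tested members was 0.34 with 2-AA and 0.15 with flg22, beside medians of 0.00 over all genes.

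In the direct comparison of the treatments, larger shares of the members than of all genes were called. The members were chosen with earlier results of these data known, so these shares are a description only. With 2-AA, 14 of 38 members (36.8%) were higher than with flg22, where 7.86% of all genes were, and 5 (13.2%) were lower, where 7.89% were. In either direction 19 of the 38 were called, and 15.8% of all genes. By at least 2-fold, 10 members were higher and 1 lower, where 1.68% and 1.48% of all genes were. Libraries of 2-AA and flg22 did not overlap in 16 of the 38 members with 2-AA above, where 16.4% of all genes did so. With 2-AA below they did not overlap in 5 of the 38 (13.2%), a smaller share than the 16.2% of all genes. Against mock, 17 of the 38 had all 2-AA libraries above (33.7% of all genes) and 11 of the 38 below (34.1%). For flg22, 10 of the 38 had all libraries above mock (32.7% of all genes) and 15 of the 38 below (32.8%). The 11 and the 10 were smaller shares than those of all genes. The 14 higher members were GSTU1, GSTU3, GSTU4, GSTU5, GSTU7, GSTU8, GSTU16, GSTU19, GSTU22, GSTU24, GSTU25, GSTF6, GSTF7 and GSTF8. The 5 lower ones were GSTU17, GSTU27, GSTF9, GSTF10 and GSTF14. Of the 3 members that were not tested because of low counts, GSTF11 had 0 counts in all 9 libraries. GSTU2 had 2 counts over the 2-AA libraries, 4 over the flg22 libraries and 0 over the mock libraries. GSTU15 had 14, 2 and 0 counts in the same order, and its single 2-AA libraries had 6, 8 and 0 counts. With 3 counts set as the mock limit and the few 2-AA counts taken as they stand, the ratio of 2-AA to mock was 4.83. Without the library 2-AA 2 it was 2.92. Counting error in the 2-AA libraries is not in these ratios.

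**Figure D1:**
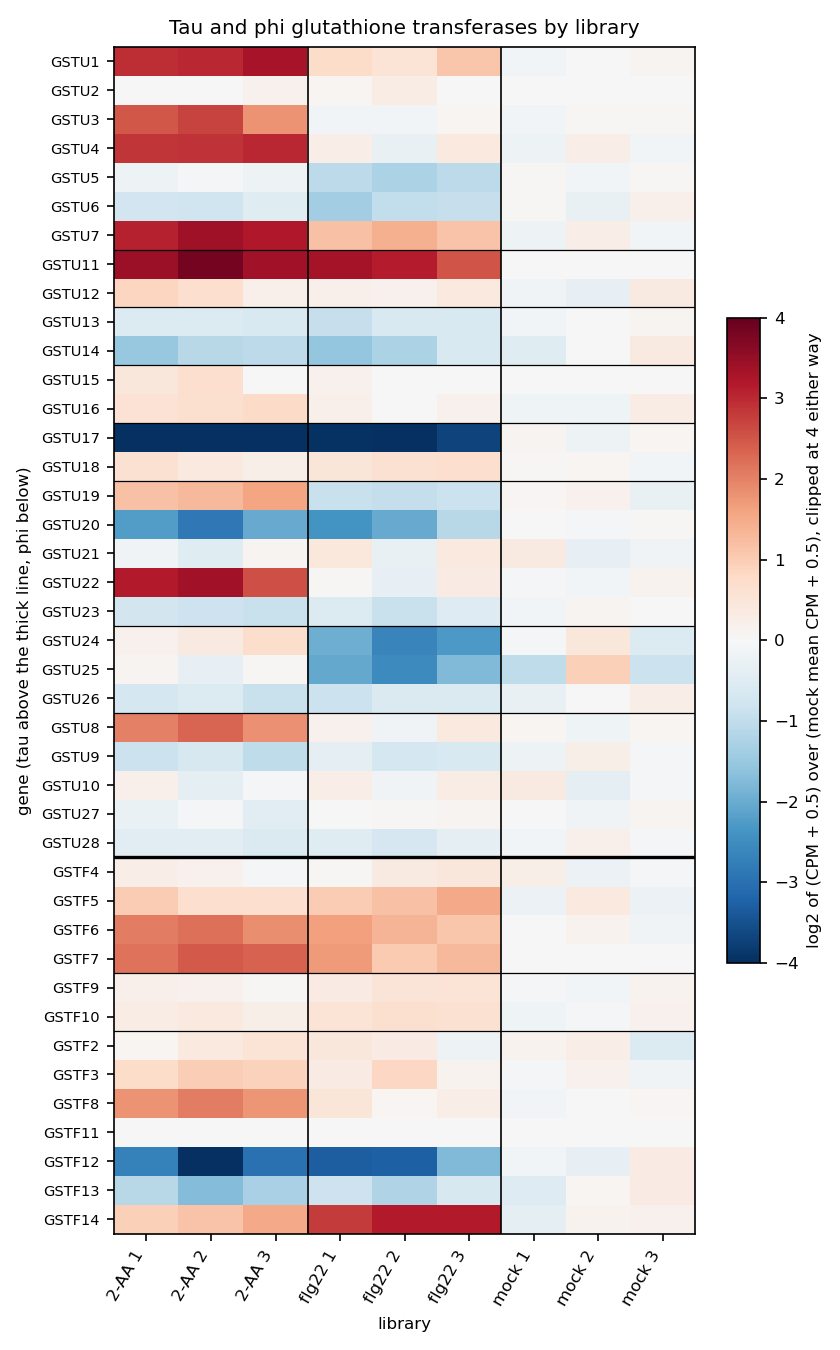
Level of each of the 41 genes in each library, as the log2 ratio of CPM + 0.5 to the mock mean + 0.5, with libraries in columns and genes in rows grouped by tandem cluster, tau above and phi below the thick line; colours stop at 4 either way. GSTU1, GSTU4, GSTU7 and GSTU22 are deep red in the 3 2-AA libraries, GSTF14 in the 3 flg22 libraries, and GSTU17 is deep blue in all 6 treated libraries.

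The classes differed in their summed levels. The tau genes together came to 2240, 2430 and 2807 CPM in the 2-AA libraries, 740.5, 717 and 832 CPM in the flg22 libraries, and 1614, 1643 and 1464 CPM in the mock libraries. The 2-AA libraries were thus above and the flg22 libraries below mock, with no overlap. One gene made much of this sum: without GSTU19, tau genes averaged 676 ± 22.3 CPM with 2-AA, 382 ± 48.9 CPM with flg22 and 863 ± 19.4 CPM in mock seedlings (SD, n = 3 each). This sum was lower in both treatments than in mock, and 2-AA stood 1.77-fold above flg22. The direction for 2-AA against mock rested on GSTU17 and GSTU20, abundant in mock: with these genes left out as well, the sum averaged 625 ± 28.8 CPM with 2-AA, 306 ± 20.3 CPM with flg22 and 461 ± 13.9 CPM in mock. In that sum, of 25 genes, 2-AA was above mock and flg22 below it. These genes were left out after their values were seen.

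Phi genes came to 3533, 3932 and 3407 CPM in the 2-AA libraries, 2791, 2621 and 2636 CPM in the flg22 libraries, and 1547, 1608 and 1751 CPM in the mock libraries. Here both treatments lay above mock, with ratios of mean sums of 2.22 for 2-AA and 1.64 for flg22. By calls against mock, 10 of the 26 tested tau genes were higher and 10 lower in 2-AA libraries, and 4 were higher and 13 lower in flg22 libraries. As shares, these were 38.5% each way with 2-AA, beside 31.2% and 31.1% of all genes, and 15.4% and 50% with flg22, beside 29.8% and 29.4%. Of 12 tested phi genes, 7 were higher and 2 lower with 2-AA, and likewise 7 and 2 with flg22, which is 58.3% higher and 16.7% lower in each. Between the treatments, 11 tau genes (42.3%) were higher and 2 (7.69%) lower with 2-AA than with flg22. Of the phi genes, 3 were higher and 3 lower (25% each). Of all genes, 7.86% were higher and 7.89% lower. The tau median log2 fold change was 0.50 for 2-AA over flg22, -0.06 for 2-AA over mock and -0.59 for flg22 over mock. The phi medians were -0.23, 0.81 and 0.54 in the same order. No test was made of the difference between the classes, since genes are not replicates.

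**Figure D2:**
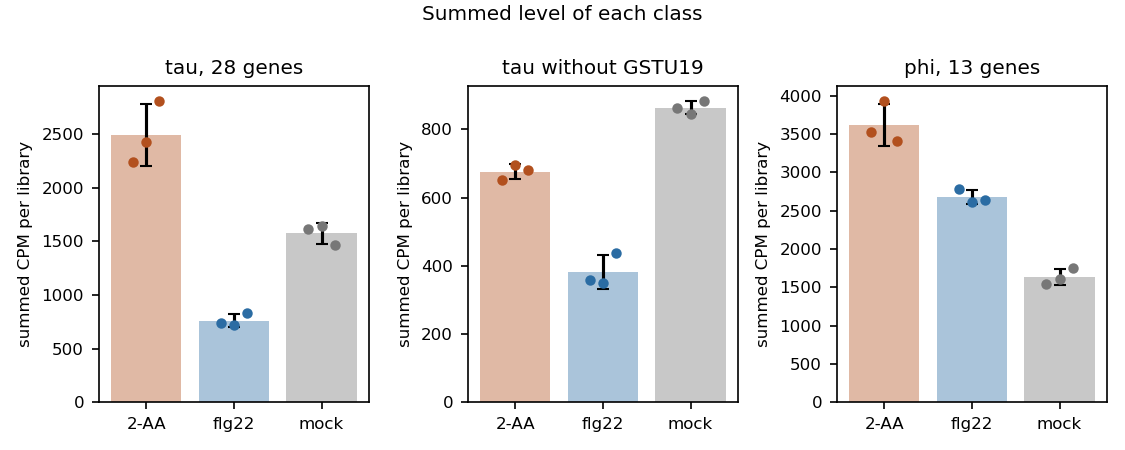
Summed CPM of the 28 tau genes, of the tau genes without GSTU19 and of the 13 phi genes, each axis starting at 0; bars are means, whiskers SD and points the 3 libraries of a group. The tau sum is lowest with flg22, at 763 ± 60.7 CPM, and the phi sum is lowest in mock, at 1635 ± 105 CPM.

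**Figure D3:**
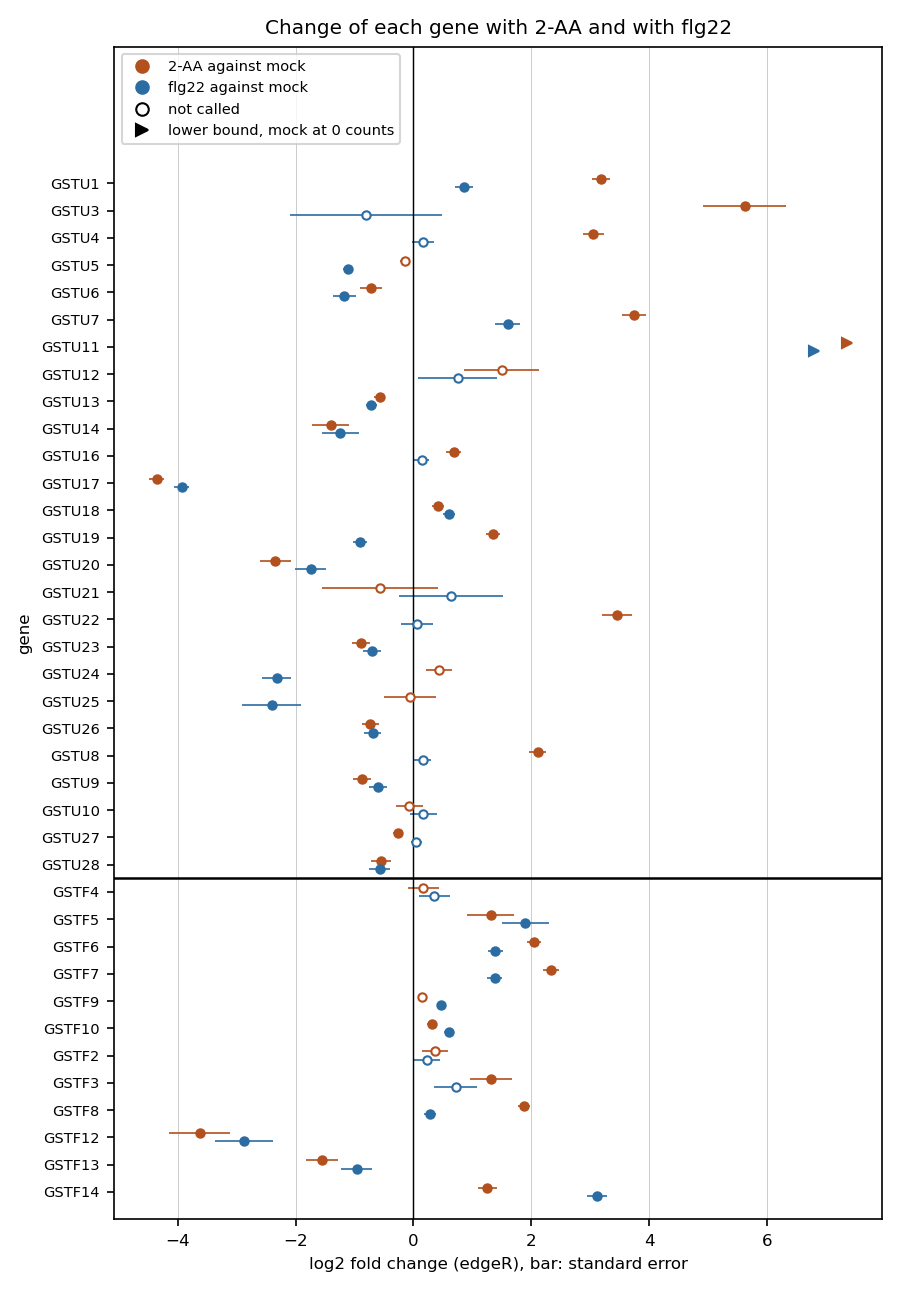
Log2 fold change of the 38 tested genes for 2-AA over mock (orange) and flg22 over mock (blue), with the standard error as a bar, open circles for genes not called and triangles for the lower bounds of GSTU11; tau genes lie above the line and phi genes below. The 2-AA point lies right of 0 and the flg22 point left of 0, both called, for GSTU19.

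Levels per kilobase of exon, used to set genes beside each other, showed a different leading gene in the flg22 libraries. The length joins all annotated exons of a gene, and the annotation used for counting is not known, so the order depends on it. GSTF8, with 2.395 kilobases beside 1.186 for GSTF6, had 1142 CPM with 2-AA against 802.5 for GSTF6. Per kilobase it came lower, at 477 ± 51.3. GSTU19 led with 2-AA, at 1622 ± 248 CPM per kilobase or 34.1% of the family's sum, followed by GSTF6 (677 ± 75.4) and GSTF9 (527 ± 28.2). With flg22, GSTF9 led at 661 ± 51.7 CPM per kilobase, or 23.9%, followed by GSTF10 (544 ± 15.5) and GSTF6 (430 ± 76.9), and GSTU19 came next at 340 ± 12.03. In mock, GSTU19 (635 ± 102, or 24.2%) and GSTF9 (475 ± 42.4) came first, and their libraries overlapped, at 519 to 714 for GSTU19 and 441 to 522 for GSTF9. GSTU20 and GSTU17 followed GSTF10 in mock, at 183 ± 5.74 and 165 ± 19.2 CPM per kilobase. Neither was among the first 8 genes in a treatment.

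The GSTU1 to GSTU7 cluster on chromosome 2 (TAIR10.1 positions 12617936 to 12632538, all genes on the minus strand) held members with large rises beside members with none. GSTU1 (AT2G29490) had 54.1, 56.7 and 69.7 CPM with 2-AA, 11.3, 9.91 and 14.7 CPM with flg22, and 6.13, 6.57 and 7.14 CPM in mock. The 3 groups did not overlap, in the order 2-AA, flg22, mock. Its log2 fold change was 3.19 (SE 0.15, adjusted p = 1.37e-09) for 2-AA over mock, 0.86 (SE 0.15, 0.000241) for flg22 over mock and 2.33 (SE 0.14, 4.25e-07) for 2-AA over flg22. GSTU7 (AT2G29420), which encodes an enzyme with activity on herbicides and peroxides, had 12.3, 15.3 and 13.2 CPM with 2-AA, 2.89, 3.54 and 2.77 CPM with flg22, and 0.803, 1.31 and 0.888 CPM in mock. It followed the same order without overlap, 13.5-fold above mock with 2-AA (adjusted p = 5.01e-09), 3.04-fold above mock with flg22 (2.28e-05) and 4.43-fold higher with 2-AA than with flg22 (6.37e-06). GSTU4 (AT2G29460) had 34.4, 34.5 and 37.8 CPM with 2-AA, 5.21, 3.40 and 5.79 CPM with flg22, and 3.65, 5.26 and 3.88 CPM in mock. GSTU4 was thus higher with 2-AA alone (8.31-fold over mock, adjusted p = 8.99e-09), while its flg22 and mock libraries overlapped (log2 fold change 0.17, SE 0.19, 0.454).

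Between these genes stood others with another order of groups. GSTU5 (AT2G29450), which belongs to the most expressed tau genes, had 136, 152 and 137 CPM with 2-AA, 76.2, 65.2 and 75.6 CPM with flg22, and 162, 145 and 164 CPM in mock. The flg22 libraries stood apart below the rest (log2 fold change -1.12 against mock, SE 0.08, adjusted p = 8.23e-08), and 2-AA and mock libraries overlapped (-0.15, SE 0.08, 0.121). GSTU6 was lower than mock with 2-AA (-0.72, adjusted p = 0.00504, but 0.0864 without the 3 chloroplast-rich libraries) and with flg22 (-1.18, adjusted p = 0.000171). Its neighbour on the other strand, AT2G29430, overlaps it, and other genes overlap GSTU2, GSTU7, GSTU10, GSTF2, GSTF4, GSTF10, GSTF11 and GSTF12 on the other strand. Whether counting used strand is not given, so the values of these members are uncertain wherever they are printed. GSTU3 was rare: 80, 79 and 45 counts with 2-AA, 0, 0 and 2 with flg22, and 0, 2 and 2 in mock. The ratio of its summed level with 2-AA was 52.8 over mock (95% counting interval 20.3 to 196) and 99.4 over flg22 (27.2 to 826), or at least 43.9-fold without the library flg22 3. In all, the 6 tested genes of the cluster had 4 called rises (66.7%) and 1 called fall (16.7%) in 2-AA libraries against mock. Over all genes these shares were 31.2% and 31.1%. The flg22 libraries gave 2 rises and 2 falls (33.3% each), close to the 29.8% and 29.4% of all genes. Set directly against flg22, 2-AA levels were called above in 5 of the 6 (83.3%), beside 7.86% of all genes. No member of the cluster was called lower with 2-AA than with flg22.

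The cluster of 5 genes, GSTU19 to GSTU23 on chromosome 1, held GSTU19, which had the highest level of the family per kilobase with 2-AA, but came behind GSTF9, GSTF10 and GSTF6 with flg22 and overlapped GSTF9 in mock. GSTU19 (AT1G78380), an enzyme with high activity on model xenobiotics and herbicides, had 1589, 1735 and 2126 CPM with 2-AA, 383, 367 and 394 CPM with flg22, and 752, 799.5 and 582 CPM in mock. No groups overlapped: it was called higher than mock with 2-AA and lower than mock with flg22, at log2 fold changes of 1.35 (SE 0.12, adjusted p = 4.46e-07) and -0.90 (SE 0.12, 2.25e-05). Between the treatments it differed by 2.25 (SE 0.12, adjusted p = 1.94e-07), or 4.77-fold. GSTU20 (AT1G78370), whose protein binds the light-signalling and jasmonate-conjugating enzyme FIN219, had 44.2, 28.6 and 51.2 CPM with 2-AA, 40.0, 51.9 and 96.4 CPM with flg22, and 210, 204 and 217 CPM in mock. Both treatments lay below all mock libraries, by -2.34 (SE 0.27, adjusted p = 5.77e-06) for 2-AA and -1.74 (SE 0.26, 7.76e-05) for flg22. GSTU20 did not pass the test between 2-AA and flg22 (-0.60, SE 0.26, 0.154), but did without the library flg22 1 (-0.84, 0.0356).

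GSTU22 (AT1G78340) had the same order of groups as GSTU4. It had 17.4, 19.6 and 11.3 CPM with 2-AA, 1.54, 1.05 and 1.96 CPM with flg22, and 1.41, 1.31 and 1.68 CPM in mock. All 2-AA libraries stood above the rest, and flg22 and mock libraries overlapped: its log2 fold changes were 3.46 for 2-AA over mock (SE 0.25, adjusted p = 6.39e-08), 3.40 for 2-AA over flg22 (SE 0.25, 1.93e-06) and 0.06 for flg22 over mock (SE 0.28, 0.871). GSTU23 was lower than mock with 2-AA (-0.89, adjusted p = 0.000237) and with flg22 (-0.70, 0.00161), and GSTU21, at no more than 13 counts in any library, was not called in any comparison. Coding sequences of GSTU19 and GSTU20 were 76.2% identical and those of GSTU19 and GSTU22 78.1%, and no stretch of 50 bases in their exons occurred elsewhere in the genome.

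GSTU24, GSTU25 and GSTU26 form a cluster on the other arm of chromosome 1 (positions 5869543 to 5876620). In GSTU24 and GSTU25 the flg22 values lay below those of both other groups, while in GSTU26 they lay below mock only. GSTU24 and GSTU25 encode enzymes known for detoxifying the explosive TNT. GSTU24 (AT1G17170) had 67.6, 77.9 and 97.8 CPM with 2-AA, 15.1, 9.22 and 11.7 CPM with flg22, and 56.6, 83.0 and 40.7 CPM in mock. The flg22 libraries lay below all others: GSTU24 fell by 2.32 on the log2 scale with flg22 against mock (SE 0.24, adjusted p = 2.64e-06) and was 6.73-fold higher with 2-AA than with flg22 (9.04e-06). Between 2-AA and mock it differed by 0.43 (SE 0.22, adjusted p = 0.104), or by 0.75 (0.00587) without the library mock 2. GSTU25 (AT1G17180) had 8.93, 6.44 and 8.63 CPM with 2-AA, 1.61, 1.01 and 2.06 CPM with flg22, and 3.85, 16.7 and 4.34 CPM in mock, so that mock 2 stood far above the other mock libraries. It fell by 2.41 with flg22 against mock (SE 0.50, adjusted p = 0.00105), or by 1.38 (0.00105) without mock 2. Between 2-AA and mock GSTU25 differed by -0.06 (SE 0.44, adjusted p = 0.923), and without mock 2 by 0.98 (0.00644), a change of direction and of call. GSTU26 was lower than mock in both treatments, at -0.73 with 2-AA (adjusted p = 0.000596) and -0.69 with flg22 (0.000985).

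**Figure D4:**
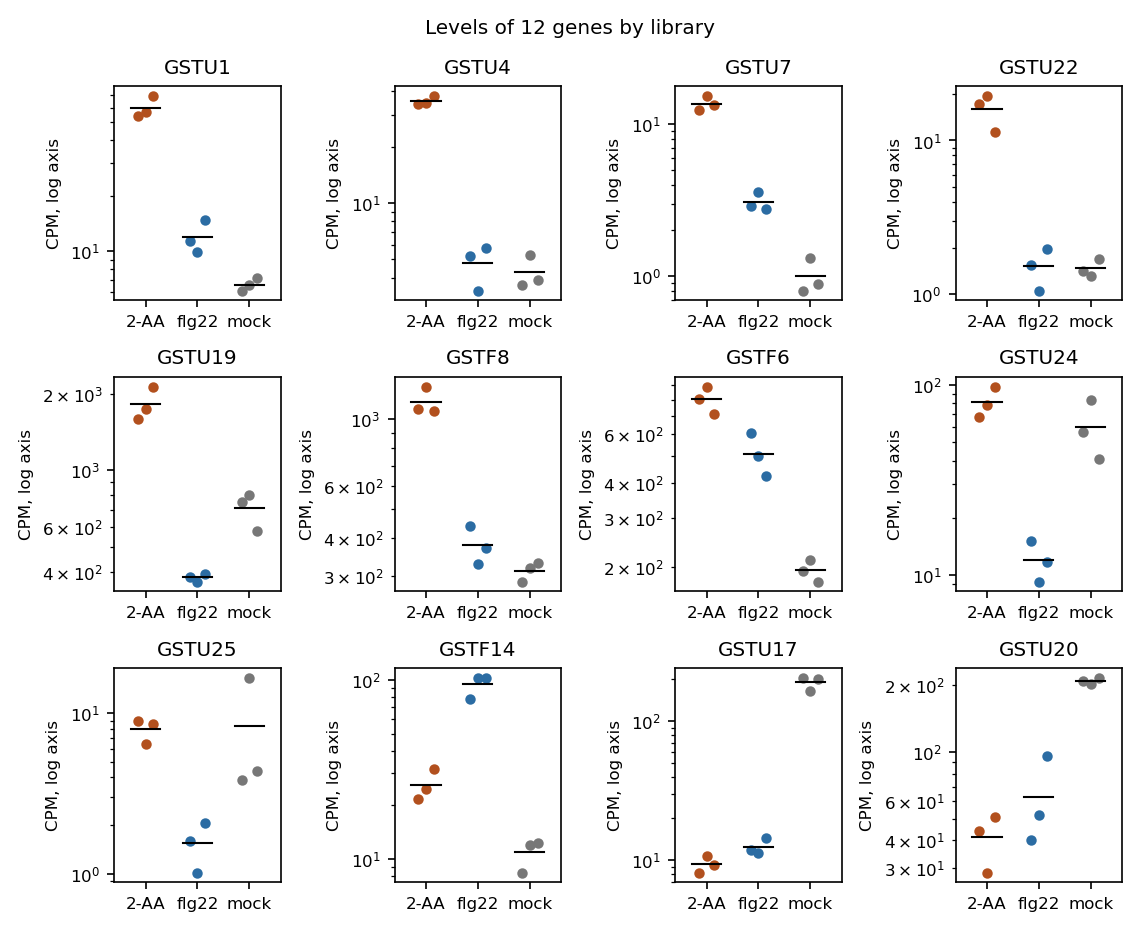
CPM on log axes, each with its own range, of 12 genes in the 9 libraries (points) with the group mean as a line. GSTU1, GSTU4, GSTU7, GSTU22, GSTU19 and GSTF8 are highest in the 3 2-AA libraries, GSTU24 and GSTU25 are lowest in the 3 flg22 libraries, and GSTU25 in mock 2 stands at 16.7 CPM.

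The 300 bases before the annotated start were read from the TAIR10.1 genome (RefSeq) for all 41 genes and searched on both strands for TGACG, the core bound by TGA bZIP factors, and TTGAC, the core of the W-box bound by WRKY factors. A match is only a description of these letters. The windows of 6 genes are shown, taken from the members that carried TGACG and were at least 3-fold higher with 2-AA than with flg22. These are GSTU1, GSTU7, GSTU22, GSTU24, GSTU25 and GSTF8. The window of GSTF14, which was lower and carried none, is shown too. This choice leaves out members of other kinds. GSTU4 and GSTU19 were higher without TGACG, and GSTU27 and GSTF10 were lower with it. Each window reads 5′ to 3′ on the strand of its gene, and capitals mark TGACG or its reverse complement. The positions are chr2:12632539-12632838 (minus strand) for GSTU1, chr2:12618900-12619199 (minus strand) for GSTU7, chr1:29474004-29474303 (minus strand) for GSTU22, chr1:5869243-5869542 (plus strand) for GSTU24, chr1:5871724-5872023 (plus strand) for GSTU25, chr2:19556026-19556325 (plus strand) for GSTF8 and chr1:18458226-18458525 (plus strand) for GSTF14.
GSTU1: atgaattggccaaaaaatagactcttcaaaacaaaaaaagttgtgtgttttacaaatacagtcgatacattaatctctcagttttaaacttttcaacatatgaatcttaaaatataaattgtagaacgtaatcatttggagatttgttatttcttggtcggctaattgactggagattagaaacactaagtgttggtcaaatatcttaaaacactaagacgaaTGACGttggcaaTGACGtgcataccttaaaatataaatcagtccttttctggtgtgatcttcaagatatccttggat
GSTU7: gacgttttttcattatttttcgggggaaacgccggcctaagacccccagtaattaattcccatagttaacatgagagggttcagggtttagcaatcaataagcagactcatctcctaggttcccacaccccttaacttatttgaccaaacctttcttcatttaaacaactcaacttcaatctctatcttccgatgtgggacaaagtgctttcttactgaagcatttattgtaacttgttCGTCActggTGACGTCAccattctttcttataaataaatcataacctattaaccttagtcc
GSTU22: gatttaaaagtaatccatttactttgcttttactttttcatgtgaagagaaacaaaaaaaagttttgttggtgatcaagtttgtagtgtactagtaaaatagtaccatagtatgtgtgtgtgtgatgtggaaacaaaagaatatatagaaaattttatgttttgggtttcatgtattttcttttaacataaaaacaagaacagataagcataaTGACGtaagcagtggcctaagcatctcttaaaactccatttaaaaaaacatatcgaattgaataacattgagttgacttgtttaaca
GSTU24: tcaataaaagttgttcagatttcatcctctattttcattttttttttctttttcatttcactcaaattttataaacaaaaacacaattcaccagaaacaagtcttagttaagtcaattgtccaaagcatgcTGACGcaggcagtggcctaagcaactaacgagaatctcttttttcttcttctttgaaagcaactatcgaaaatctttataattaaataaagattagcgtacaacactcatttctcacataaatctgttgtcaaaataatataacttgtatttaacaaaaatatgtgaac
GSTU25: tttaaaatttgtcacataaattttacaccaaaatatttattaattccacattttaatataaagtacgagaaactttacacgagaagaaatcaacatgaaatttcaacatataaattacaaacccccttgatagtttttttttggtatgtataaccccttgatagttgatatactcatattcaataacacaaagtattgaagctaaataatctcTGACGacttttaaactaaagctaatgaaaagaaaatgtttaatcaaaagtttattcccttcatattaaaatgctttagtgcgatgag
GSTF8: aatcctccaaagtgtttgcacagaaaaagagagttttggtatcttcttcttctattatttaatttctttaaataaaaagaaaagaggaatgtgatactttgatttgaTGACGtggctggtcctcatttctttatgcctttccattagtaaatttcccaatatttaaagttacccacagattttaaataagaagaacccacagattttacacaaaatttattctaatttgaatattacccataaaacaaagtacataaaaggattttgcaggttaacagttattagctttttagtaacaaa
GSTF14: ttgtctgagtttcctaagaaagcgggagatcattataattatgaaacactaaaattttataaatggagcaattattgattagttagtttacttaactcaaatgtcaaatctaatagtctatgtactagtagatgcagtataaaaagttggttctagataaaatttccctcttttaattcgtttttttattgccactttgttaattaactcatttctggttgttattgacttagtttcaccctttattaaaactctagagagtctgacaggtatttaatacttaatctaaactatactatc

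TGACG occurred in the window of 17 of the 41 genes (41.5%), where 21.3% of 27443 protein-coding genes on chromosomes 1 to 5 had it. By class, 13 of 28 tau genes (46.4%) and 4 of 13 phi genes (30.8%) carried it. Among the 14 members higher with 2-AA than with flg22, 9 had TGACG (64.3%), against 6 of the 19 not called (31.6%) and 2 of the 5 lower ones. Of the 8 members that were higher by at least 4-fold, 6 had it, and GSTU4 and GSTU19 did not. For 2-AA over mock, TGACG lay before 9 of 17 higher, 5 of 12 lower and 3 of 9 uncalled members, and before 6 of the 9 that were higher by at least 4-fold. For flg22 over mock it lay before 5 of 11 higher, 7 of 15 lower and 5 of 12 uncalled members. Members of a cluster descend from shared copies, so these windows are not independent of each other. TTGAC was found before 26 of the 41 genes (63.4%) and 50.4% of all genes, and the letters TTGACG, which count under both motifs, before 2 members and 8.32% of all genes. By call, TTGAC lay before 11 of the 14 members higher with 2-AA than with flg22, 12 of the 19 not called and 3 of the 5 lower ones, and before 7 of the 8 that were higher by at least 4-fold. All 9 members at least 4-fold higher with 2-AA than in mock had TTGAC, as did 13 of all 17 higher ones, 6 of the 12 lower ones and 7 of the 9 not called. For flg22 over mock, TTGAC lay before 7 of 11 higher, 9 of 15 lower and 10 of 12 uncalled members. Both motifs were thus common before the members with large rises with 2-AA. Against mock, TTGAC was at least as common before uncalled members as before higher ones in both treatments. Neither motif was tested.

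Matches lay close together in GSTU1 and GSTU7. In GSTU1 they began 77 and 65 bases before the start, and in GSTU7 at 61, 52 and 49, the last a match of the other strand that overlaps its neighbour. Such pairs, with starts 5 to 12 bases apart, occurred before 0.507% of all genes. GSTU22 and GSTU24, which lie in different clusters of chromosome 1 and have coding sequences 71.7% identical, shared a run of 15 bases, gcagtggcctaagca, beginning 79 and 161 bases before their starts. In both genes TGACG began 8 bases ahead of it, at 87 and 169. The run came from a search of all pairs of members for their longest shared stretch, so these 2 windows held it by choice. Of all 27443 windows, no others held it. The same search gave runs rich in A or T, of 16 bases in GSTU3 and GSTU11 (37 windows) and 15 in GSTF5 and GSTF6 (163 windows). Whether members share more than other genes was not tested. GSTU22 was 10.5-fold and GSTU24 6.73-fold higher with 2-AA than with flg22, but against mock they differed: GSTU22 was higher with 2-AA (3.46) and not called with flg22 (0.06), and GSTU24 was not called with 2-AA (0.43) and lower with flg22 (-2.32). GSTF6 and GSTF7 shared another run of 15 bases, caacaacgtcggtca, at 123 and 73 bases before the start, again in 2 windows of 27443.

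**Figure D5:**
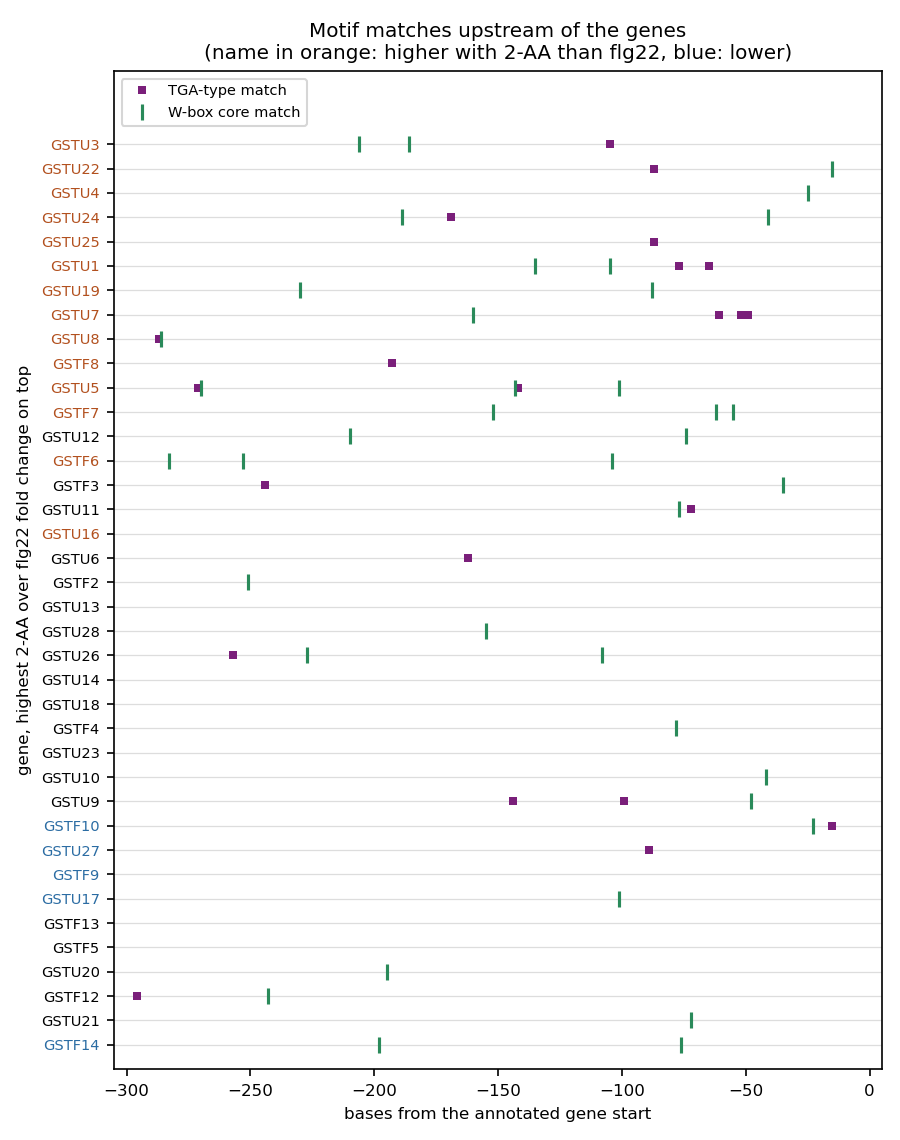
Matches of TGACG (purple squares) and TTGAC (green bars) on either strand in the 300 bases before the start of the 38 tested genes, ordered from the highest to the lowest log2 fold change of 2-AA over flg22; names are orange where the gene was called higher with 2-AA and blue where called lower. Of the 8 genes at the top, 6 carry TGACG.

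Among the remaining tau genes, GSTU8 (AT3G09270), a single gene on chromosome 3, was among those higher with 2-AA, at 77.3 to 109 CPM with 2-AA, 19.0 to 27.9 CPM with flg22 and 18.7 to 22.6 CPM in mock. It was 4.32-fold higher with 2-AA than in mock (adjusted p = 4.06e-08), and its flg22 and mock libraries overlapped (0.379, or 0.0288 without the 3 chloroplast-rich libraries). GSTU11 (AT1G69930) was found in treated libraries alone: it had 153, 174 and 150 counts with 2-AA, 138, 109 and 69 counts with flg22, and 0 counts in all mock libraries. With 3 counts over the mock group taken as the limit, it was at least 164.5-fold higher with 2-AA (edgeR adjusted p = 1.31e-07) and at least 112-fold higher with flg22 (3.80e-07), or at least 96.6-fold without flg22 1. Its neighbour GSTU12, with 57.7% of coding bases in common, reached no more than 24 counts in a library and was not called with 2-AA over mock (adjusted p = 0.0556). GSTU12 was called without the library mock 3 (0.0108), without 2-AA 3 (0.0367), with limma-voom, without the 3 chloroplast-rich libraries and with a term for them.

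GSTU17 (AT1G10370), a gene of light and drought responses, showed the deepest fall of the family. It had 8.14, 10.7 and 9.25 CPM with 2-AA, 11.9, 11.2 and 14.4 CPM with flg22, and 206, 166 and 203 CPM in mock. Treated libraries lay far below mock, 20.5-fold lower with 2-AA (log2 fold change -4.36, SE 0.13, adjusted p = 4.01e-11) and 15.3-fold lower with flg22 (-3.94, SE 0.12, 1.05e-10). The value of -0.42 between 2-AA and flg22 (adjusted p = 0.0369) did not pass without flg22 1, flg22 3, 2-AA 1 or 2-AA 3 (0.0552 to 0.149), nor with limma-voom or with only the 2 groups compared. GSTU18 (AT1G10360), whose start overlaps the 3′ end of GSTU17 on the same strand and which shares 81.6% of coding bases, went the other way. It had 33.8, 28.9 and 26.2 CPM with 2-AA, 31.5, 34.1 and 35.7 CPM with flg22, and 22.7, 23.2 and 20.5 CPM in mock. GSTU18 was higher than mock with 2-AA (0.42, SE 0.10, adjusted p = 0.00236) and with flg22 (0.61, SE 0.10, 0.000152).

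GSTU13 (AT1G27130), a gene of indole glucosinolate-linked immunity, had 36.5, 36.5 and 34.5 CPM with 2-AA, 27.7, 35.0 and 34.8 CPM with flg22, and 49.6, 53.2 and 57.1 CPM in mock. It fell by 0.57 with 2-AA (SE 0.09, adjusted p = 8.74e-05) and by 0.71 with flg22 (SE 0.09, 1.46e-05) against mock. Its neighbour GSTU14 had 1.53, 2.21 and 2.34 CPM with 2-AA, 1.51, 1.95 and 3.35 CPM with flg22, and 3.71, 5.29 and 7.10 CPM in mock. Both treatments lay below mock for GSTU14 too (-1.41, adjusted p = 0.00168 with 2-AA; -1.24, 0.00401 with flg22), but the flg22 call ended without the 3 chloroplast-rich libraries (-0.88, 0.0767). GSTU16 was higher with 2-AA than in mock (0.69, adjusted p = 0.000395) and than with flg22 (0.55, 0.0105). Between flg22 and mock it differed by 0.14 (0.376), or by 0.33 (0.0202) without the library mock 3. GSTU9 was lower than mock in both treatments (-0.88 with 2-AA, -0.60 with flg22), and so was GSTU28 (-0.55 and -0.58), whose calls both ended without mock 2 (0.0780 for 2-AA and 0.0668 for flg22). GSTU27 had 35.7, 40.1 and 31.7 CPM with 2-AA, 43.1, 44.0 and 45.8 CPM with flg22, and 42.6, 39.0 and 46.6 CPM in mock. Its fall with 2-AA, -0.26 against mock (adjusted p = 0.0224) and -0.31 against flg22 (0.0325), was small, and each call ended on leaving out any of several single libraries (0.0593 to 0.119 and 0.0580 to 0.118). GSTU10 was not called in any comparison.

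In the phi class, the tandem pair GSTF6 and GSTF7 and the single gene GSTF8 had the largest rises of 2-AA over mock. GSTF6 (AT1G02930), which conjugates glutathione in camalexin synthesis, had 806, 890 and 711 CPM with 2-AA, 606, 501 and 424 CPM with flg22, and 194, 213 and 177 CPM in mock. GSTF7 (AT1G02920) had 425, 516 and 484 CPM with 2-AA, 308, 198 and 232 CPM with flg22, and 94.8, 95.9 and 92.7 CPM in mock. In both genes the 3 groups did not overlap, with 2-AA on top and mock at the bottom. GSTF6 differed from mock by 2.04 with 2-AA (SE 0.12, adjusted p = 1.25e-08) and 1.39 with flg22 (SE 0.12, 4.92e-07), and by 0.65 between 2-AA and flg22 (SE 0.12, 0.00235). GSTF7 differed by 2.33 (SE 0.13, 7.82e-09), 1.38 (SE 0.13, 1e-06) and 0.95 (SE 0.13, 0.00025) in the same comparisons. Their coding sequences were 94.3% identical, and 10.3% of the 50-base stretches of GSTF6 exons and 10.04% of those of GSTF7 occurred elsewhere, so their counts may be split between them; the sum over their cluster averaged 1281 ± 113 CPM with 2-AA, 760 ± 138 CPM with flg22 and 291 ± 19.5 CPM in mock. GSTF5 and GSTF4 of the same cluster stayed below 3 CPM. GSTF5 was higher than mock with 2-AA (1.31, adjusted p = 0.0124) and with flg22 (1.90, 0.00106). The 2-AA call of GSTF5 ended without the library 2-AA 1 (0.0520) and without the 3 chloroplast-rich libraries (0.0660), and GSTF4 was not called.

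GSTF8 (AT2G47730), a widely used marker of early stress and defence responses, had 1079, 1284 and 1064 CPM with 2-AA, 438, 328 and 372 CPM with flg22, and 286, 318 and 330 CPM in mock. The 2-AA libraries stood apart at 3.67-fold mock (log2 fold change 1.88, SE 0.11, adjusted p = 7.75e-09) and 3.01-fold flg22 (1.59, SE 0.11, 9.36e-07). The flg22 and mock libraries overlapped, and the call between them (0.28, SE 0.10, 0.0314) ended without flg22 1 (0.172), mock 1 (0.109) or mock 2 (0.0536) and with a block for replicate number. AT2G47720 overlaps GSTF8 on the same strand. GSTF14 (AT1G49860), a single gene on chromosome 1, was highest with flg22. It had 21.6, 24.4 and 31.8 CPM with 2-AA, 78.0, 103 and 102 CPM with flg22, and 8.37, 11.9 and 12.3 CPM in mock. The flg22 libraries lay 8.66-fold above mock (3.12, SE 0.17, adjusted p = 7.41e-09), the 2-AA libraries 2.39-fold above mock (1.26, SE 0.17, 2.26e-05), and 2-AA was 3.62-fold below flg22 (-1.86, SE 0.16, 6.57e-06). GSTF14 was the one member called lower by at least 2-fold with 2-AA than with flg22.

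The pair GSTF9 and GSTF10, abundant in all libraries, changed little. GSTF9 (AT2G30860), tied to glucosinolate synthesis, had 678, 661 and 612 CPM with 2-AA, 742, 840 and 862 CPM with flg22, and 570, 543 and 644 CPM in mock. Its flg22 libraries were the highest (0.48 against mock, SE 0.08, adjusted p = 0.000174), and the 2-AA mean lay between, with overlap with mock, at -0.33 against flg22 (SE 0.08, 0.0134) and 0.15 against mock (0.115, or 0.24 and 0.0205 without mock 3). GSTF10 (AT2G30870) had 502, 536 and 480 CPM with 2-AA, 596, 629 and 622 CPM with flg22, and 362, 392 and 460 CPM in mock. Its groups did not overlap, and it was higher than mock with 2-AA (0.32, SE 0.08, adjusted p = 0.00398) and with flg22 (0.60, SE 0.08, 2.98e-05). The value of -0.28 between 2-AA and flg22 (0.0331) did not pass without any one of 5 libraries (0.0552 to 0.0989).

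GSTF12 (AT5G17220), also known as TRANSPARENT TESTA 19, which is needed for anthocyanins and proanthocyanidins to reach the vacuole, fell in both treatments. It had 1.63, 0.267 and 1.23 CPM with 2-AA, 0.885, 0.940 and 3.59 CPM with flg22, and 12.3, 10.5 and 16.9 CPM in mock. All treated libraries lay below mock, by -3.63 with 2-AA (SE 0.52, adjusted p = 4.55e-05) and -2.87 with flg22 (SE 0.49, 0.000235), and leaving out the library flg22 3 gave -3.85 for flg22. Without the 3 chloroplast-rich libraries the 2-AA value was -2.98 (0.000262). GSTF13 had 2.65, 1.56 and 2.28 CPM with 2-AA, 3.38, 2.46 and 3.92 CPM with flg22, and 4.29, 6.78 and 8.03 CPM in mock. It was lower than mock with 2-AA (-1.55, SE 0.27, 0.00026) and with flg22 (-0.97, SE 0.26, 0.00679), the second not without the 3 chloroplast-rich libraries (-0.59, 0.0879). GSTF2 (AT4G02520), which binds auxin, camalexin and other small ligands, had 11.3, 14.3 and 15.8 CPM with 2-AA, 14.9, 13.4 and 9.24 CPM with flg22, and 11.8, 13.1 and 7.20 CPM in mock. Its groups overlapped and no comparison passed (0.37 for 2-AA and 0.23 for flg22 against mock, 0.160 and 0.397). GSTF3, whose coding sequence is 94.5% identical to that of GSTF2, was higher with 2-AA than in mock (1.32, SE 0.36, 0.00585) at no more than 1.75 CPM.

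Genes that supply glutathione or handle its conjugates were read from a list of 11, of which 10 were tested. With 2-AA, 6 were higher and 2 lower than in mock (median log2 fold change 0.37), where 31.2% and 31.1% of all genes were. With flg22, 4 were higher and 3 lower (-0.03), beside 29.8% and 29.4% of all genes, and 4 were higher and none lower with 2-AA than with flg22 (0.30), beside 7.86% and 7.89%. GSH2, glutathione synthetase, was higher in both treatments. It had 217 ± 5.28 CPM with 2-AA, 217 ± 7.54 CPM with flg22 and 90.8 ± 4.88 CPM in mock. GSH1 of the same list was called in neither treatment against mock. Its log2 fold change was 0.08 with 2-AA (edgeR adjusted p = 0.265) and -0.02 with flg22 (0.762). GR1, a cytosolic glutathione reductase, was lower, at 136 ± 12.7 CPM with 2-AA, 96.9 ± 6.85 CPM with flg22 and 374 ± 10.9 CPM in mock. The vacuolar conjugate pumps ABCC1 and ABCC2 were higher with 2-AA than with flg22, by 0.50 (SE 0.06, adjusted p = 0.000125) and 0.56 (SE 0.07, 0.000103). Of 11 other glutathione transferases (lambda, theta, zeta and dehydroascorbate reductase classes), 8 rose and 2 fell in 2-AA libraries against mock, and 5 rose and 2 fell in flg22 libraries. Of all genes, 31.2% rose and 31.1% fell with 2-AA, and 29.8% and 29.4% with flg22. Between 2-AA and flg22, 2 of the 11 were higher and 1 lower, beside 7.86% and 7.89% of all genes. These were DHAR2 by 1.26 (SE 0.09, adjusted p = 1.24e-06), GSTZ1 by 0.79 (SE 0.09, 6.33e-05) and DHAR3 by -0.27 (SE 0.06, 0.0105). The median of that list was 0.05 for 2-AA over flg22, beside 0.14 over the tau and phi members and -0.01 over all genes.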

How the data were processed

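Per the labels' protocols, RNA of whole seedlings went into Illumina TruSeq libraries, and the authors deposited whole-number read counts per locus for 9 libraries. Per the submitters' processing notes, Trimmomatic 0.36, HISAT2 and edgeR were used with TAIR10; which program counted reads, with which annotation and on which strand, was not stated there. Members and lists were chosen with earlier results of these data known. Counts were tested with edgeR 4.0.16 (R 4.3.3; filterByExpr with minimum count 10 and minimum total count 15, TMM, glmQLFit, glmQLFTest, two-sided), all 9 libraries in 1 fit by group, with Benjamini-Hochberg adjustment over 21059 genes, and tested on simulated data. All members are accounted for. Full values are given for 12 chosen members and, per comparison, for the 5 largest called changes either way with at least 5 CPM and no overlap. Alternatives were DESeq2 1.42.0 (size factors, Wald test), limma-voom (limma 3.58.1), no filter, a replicate block, only the 2 groups compared, a test against 1.5-fold and leaving out each library. The 3 chloroplast-rich libraries were left out or given a term as alternatives chosen after seeing the data. The SE is the log2 fold change over the square root of F. Intervals cover counting error only, since reads carried no molecular identifiers. Limits allow for counting error in the group at 0 counts and take the counts of the other group as they stand. Within groups, all pairs of libraries were further apart than sampling noise (chi-square per degree of freedom 5.62 to 31.8). The doubled tabs of the table's header were read as 1 separator. Of the loci, 32548 matched the TAIR10.1 gene table. From the list of other transferases, 2 of 13 were dropped, as the table did not give their names.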

Additional observations from a re-analysis of the deposited data

How the results depend on the processing

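DESeq2 size factors, no filter, the DESeq2 Wald test, limma-voom and only the 2 groups compared kept each count of called members within 1.5 times its reported value. Against 1.5-fold, 7 members were lower with 2-AA than in mock, 6 rose and 9 fell with flg22 against mock, and 1 was lower with 2-AA than with flg22. Leaving out 1 library gave 16 to 19 higher and 11 to 12 lower for 2-AA over mock, 10 to 12 and 14 to 15 for flg22 over mock, and 14 and 2 to 5 for 2-AA over flg22, where GSTU17, GSTU27 and GSTF10 were lost. Without the 3 chloroplast-rich libraries the counts were 18 and 11, 13 and 12, and 14 and 5 in the same order. Same-numbered libraries correlated between -0.207 and 0.266 in their deviations from group means. Differently numbered libraries correlated between -0.226 and 0.324, a range that holds the first. With 3 libraries a group, these values cannot show whether libraries of the same number shared a batch. With the replicate block the counts were 17 and 12, 10 and 15, and 14 and 4.

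Some log2 values that had not been called changed sign, and the cause was not tested. For 2-AA over mock, GSTU25 was 0.26 with limma-voom, 0.14 with the replicate block and 0.012 with a term for the chloroplast-rich libraries, and GSTU10 was 0.051 without those libraries. Leaving out 1 library gave -0.38 to 0.98 for GSTU25, -0.23 to 0.17 for GSTU10 and -1.46 to 0.45 for GSTU21. For flg22 over mock, GSTU3 was 0.075 and GSTF2 -0.032 without the 3 chloroplast-rich libraries, and GSTU22 ran from -0.17 to 0.27 and GSTU27 from -0.0027 to 0.13 without 1 library. For 2-AA over flg22, GSTU28 was -0.086 without the 3 chloroplast-rich libraries, and without 1 library the ranges were -0.39 to 0.23 (GSTU14), -0.13 to 0.044 (GSTU26), -0.054 to 0.10 (GSTU28), -0.034 to 0.29 (GSTF2) and -1.21 to 0.23 (GSTF12). Of these, GSTU25 without mock 2 was the one called. Genes of a few counts, such as GSTU2, GSTU12, GSTU15 and GSTU21, are poorly measured at this depth.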
